A study of Mus musculus with 6 samples.

Results

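The genes described here are those for the D-type cyclins (Ccnd1, Ccnd2, Ccnd3), the E-type cyclins (Ccne1, Ccne2), the kinases they bind (Cdk2, Cdk4, Cdk6) and the retinoblastoma pocket proteins Rb1 and Rbl1. They were taken by symbol from the GENCODE M21 annotation, and all 10 were found among the 18951 gene rows of the deposited count table. All 10 passed the filter on low counts. RNA was sequenced from primary heart muscle cell cultures of C57BL/6 mice at postnatal day 1, described in the protocols as over 97.5% pure by staining for cardiac troponin T. One group of 3 libraries, si-Control, came from cultures transfected with a scrambled siRNA, and the other group of 3, si-Rbm22, from cultures transfected with an siRNA against Rbm22, the gene of a spliceosome protein that contacts RNA through zinc finger and RNA recognition domains. Both groups were collected 48 h later, and no genetic change is named for either. The design asks how silencing Rbm22 changes the transcriptome of these cells.

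In the G1 phase of the cell cycle, D-type cyclins made in response to growth signals bind the kinases CDK4 and CDK6, and E-type cyclins then bind CDK2. These complexes phosphorylate the pocket proteins RB1, p107 (encoded by Rbl1) and p130 (encoded by Rbl2). Unphosphorylated pocket proteins hold E2F transcription factors and repress genes of DNA synthesis and mitosis, and their phosphorylation releases E2F and starts S phase. Heart muscle cells of the mouse largely leave the cell cycle in the first week after birth, and D-type cyclins and their kinases are among the regulators studied for that exit.

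The libraries labelled si-Control went against their label as cardiomyocytes. The summed level of 16 cardiomyocyte markers was 131 to 151 CPM (counts-per-million, read counts relative to the library total after TMM scaling) in them and 29260 to 45110 CPM in si-Rbm22. In si-Control, 6 of the 16 had no reads (Mybpc3, Myl2, Myl3, Myl7, Pln and Nppa), and the most abundant was Ttn, the giant sarcomere protein gene, at 66.7 CPM. The most abundant in si-Rbm22 was Myh6, the alpha myosin heavy chain gene, at 15680 CPM. Skeletal muscle precursor markers (10 genes, led by Des in both groups) summed to 1172 to 1243 CPM in si-Control and 365 to 525 CPM in si-Rbm22, where Myod1, Myf5 and Cdh15 had no reads. Des, at 633 CPM in si-Control and 449 CPM in si-Rbm22, made up nearly all of the si-Rbm22 sum. Chrna1, the next most abundant in si-Control, was at 337 and 0.166 CPM. All 8 tested markers of this list were lower in si-Rbm22. Pax7 and Pax3, also of this list, had too few reads to test in either group, at most 3 in a library. The other cell type lists also differed. Fibroblast markers (10 genes) summed to 22230 to 24130 CPM in si-Control against 6159 to 6525 CPM in si-Rbm22, and smooth muscle and pericyte markers (8) to 2835 to 2912 against 2114 to 2638 CPM. Within both of these lists the genes moved in both directions (adjusted p under 0.05 by edgeR). Of the fibroblast markers, 3 were higher in si-Rbm22 and 6 lower, and of the smooth muscle and pericyte markers, 4 were higher and 4 lower. Endothelial markers (10) summed to 9.25 to 11.1 against 427 to 474 CPM, epicardial and mesothelial markers (8) to 99.1 to 103 against 2205 to 2405 CPM, macrophage markers (10) to 19.6 to 22.5 against 121 to 156 CPM, and Schwann and neural markers (6) to 27.2 to 30.5 against 94.0 to 103 CPM. Erythroid markers (5 measured) summed to at most 1.28 CPM in each library. These levels move with every group difference below, and their part in those differences was not tested. All 3 si-Control libraries are concerned, so no comparison could be made without them. Rbm22 itself was at 22.0, 25.2 and 22.3 CPM in si-Control and 14.55, 12.95 and 13.08 CPM in si-Rbm22 (log2 fold change −0.78, SE 0.097, adjusted p = 4.22e-06 by edgeR). Total counts ran from 34269042 to 37344860 per library.

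Ccnd2 was the member that stood out in size. It was 9.9-fold higher in si-Rbm22, Ccnd3 and Ccne2 were 1.45-fold and 1.74-fold higher, Rbl1 was 1.99-fold lower, and Ccnd1, Ccne1, Cdk4 and Rb1 were modestly lower. Of the 10 genes, 3 rose and 5 fell at an adjusted p under 0.05 by edgeR's quasi-likelihood test, and Cdk2 and Cdk6 did not pass. Over all 14621 genes tested, 82% passed, 43.1% higher and 38.9% lower, so 8 of 10 is close to the background of this comparison. The groups did not overlap for the same 8 genes, against 84.2% of all genes tested. The median log2 fold change, si-Rbm22 over si-Control, was −0.16 for the 10 genes and 0.05 for all genes tested. With a 2-fold change required as well, 1 of the 10 was called higher (Ccnd2) and 0 lower, where 24.4% and 18.7% of genes tested were, 43.1% in all. In bulk libraries, fewer cells of a type and less RNA per cell cannot be told apart.

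**Figure D1:**
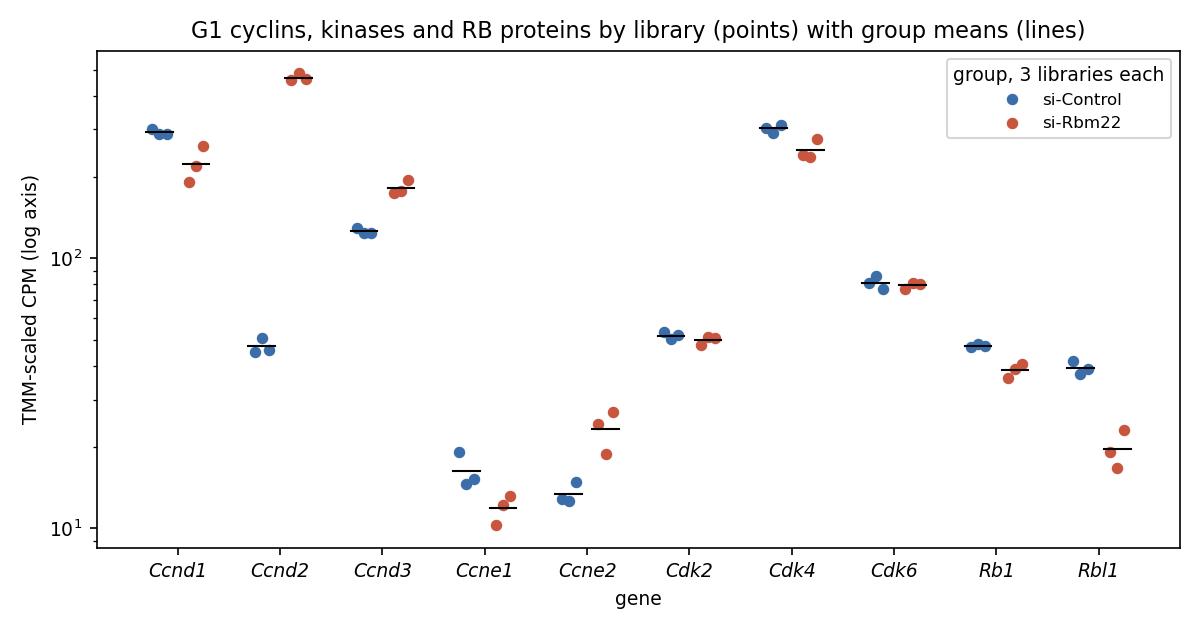
TMM-scaled CPM on a log axis for each of the 10 genes, with 1 point per library (si-Control blue, si-Rbm22 red, 3 each) and a line at each group's mean. Ccnd2 is the widest separation, from 47.2 to 467 CPM on average, while the points of Cdk2 and of Cdk6 overlap between the groups.

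The D-type cyclins are the growth-responsive partners of CDK4 and CDK6, and each carries near its amino end the motif LxCxE (leucine, any residue, cysteine, any residue, glutamate) by which it docks on pocket proteins. The first 45 coding bases of the 3 genes, read from the GENCODE M21 transcripts, are shown because they carry this shared feature of proteins whose mRNAs moved apart. Capitals mark the 5 codons of the motif, which starts at codon 5 in Ccnd1 and at codon 3 in Ccnd2 and Ccnd3.
Ccnd1: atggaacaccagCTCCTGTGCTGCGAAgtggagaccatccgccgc
Ccnd2: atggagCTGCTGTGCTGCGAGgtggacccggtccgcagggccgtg
Ccnd3: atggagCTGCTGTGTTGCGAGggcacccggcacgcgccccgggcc
No such run of codons was found in the coding sequences of the other 7 genes. The coding sequences were 68.0% identical between Ccnd1 and Ccnd2, 63.7% between Ccnd1 and Ccnd3, and 68.4% between Ccnd2 and Ccnd3 over their aligned bases. The longest identical run in these alignments was 20 bases, and no stretch of 50 bases was shared among the transcripts of the 10 genes.

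Ccnd2 (ENSMUSG00000000184; GRCm38 chr6:127125162-127152193, minus strand) had 1637, 1844 and 1584 reads in si-Control, or 45.2, 50.8 and 45.6 CPM. In si-Rbm22 it had 16755, 17429 and 17278 reads, or 458, 484 and 460 CPM. Each si-Rbm22 library thus lay far above every si-Control library, and the spread within a group was small beside the gap. The difference was 9.9-fold (log2 fold change 3.31, SE 0.066, adjusted p = 1.57e-14 by edgeR). Over the alternative fits it lay between 3.26 and 3.35 on the log2 scale.

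Ccnd1 (ENSMUSG00000070348; chr7:144929931-144939925, minus strand), the D-type cyclin gene induced by mitogens in many cell types, went the other way. It was at 302, 289 and 288 CPM in si-Control and at 191, 220 and 261 CPM in si-Rbm22. The si-Control libraries were close together and the si-Rbm22 libraries spread, with the third nearest to si-Control. Ccnd1 fell by 0.39 on the log2 scale (SE 0.094, adjusted p = 0.00264 by edgeR). The exons of Ccnd1 overlap those of LTO1 on the opposite strand over 1100 bases, or 23.4% of its exon length. LTO1 was at 22.7 ± 1.76 and 23.5 ± 0.971 CPM (SD, n = 3 each) and did not pass. The strand setting of the counting is not given, so reads in that overlap cannot be assigned to either gene here.

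Ccnd3 (ENSMUSG00000034165; chr17:47505051-47599691, plus strand), the D-type cyclin gene often linked to differentiating tissues, was at 129, 124 and 125 CPM in si-Control and 175, 178 and 194 CPM in si-Rbm22. All 3 si-Rbm22 values were above the highest si-Control value. It rose by 0.54 on the log2 scale (SE 0.058, edgeR adjusted p = 9.72e-07). Its exons overlap Bysl, a ribosome biogenesis gene on the opposite strand that also rose (log2 fold change 0.85), over 361 bases. Ccnd3 has the largest share of transcript 50-mers found in other genes among the 10, at 1.99%, led by its pseudogene Ccnd3-ps. The corresponding share was under 1% for the other 9 genes and 0 for 6 of them.

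The mix of D-type cyclin mRNAs therefore differed between the groups. Levels of different genes are compared per length, as CPM per kilobase of annotated exon. On that scale the share of Ccnd1 in the D-type cyclin level went from 76.3% ± 0.408 in si-Control to 40.2% ± 3.36 in si-Rbm22, and that of Ccnd2 from 6.16% ± 0.473 to 42.2% ± 3.11 (SD, n = 3 each). Ccnd3 made up 17.6% in both. The summed per-length level of the 3 genes was 81.6 ± 1.81 in si-Control and 118 ± 8.65 in si-Rbm22. The ratio of Ccnd2 to Ccnd1 within a library, which does not depend on scaling between libraries, was 0.0806 in si-Control and 1.05 in si-Rbm22, a 13.1-fold difference. That of Ccnd3 to Ccnd1 was 0.231 and 0.440. For neither ratio did the groups overlap (two-sided exact permutation p = 0.1, the smallest that 3 against 3 can give, and 0.12 adjusted over 6 ratios).

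The shares depend on the length used, because the annotated exons of Ccnd3 span 8775 bases and its longest coding transcript 2113. With the longest protein-coding transcript as length, an alternative chosen after the data were seen, Ccnd3 made up 41.0% in si-Control and 39.3% in si-Rbm22, Ccnd1 53.9% and 27.1%, and Ccnd2 5.13% and 33.6%. The order of the 3 genes in si-Rbm22 is thus not settled by these counts. Each length is the same in every library, so the fold difference between groups in the Ccnd2 to Ccnd1 ratio cannot depend on it.

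**Figure D2:**
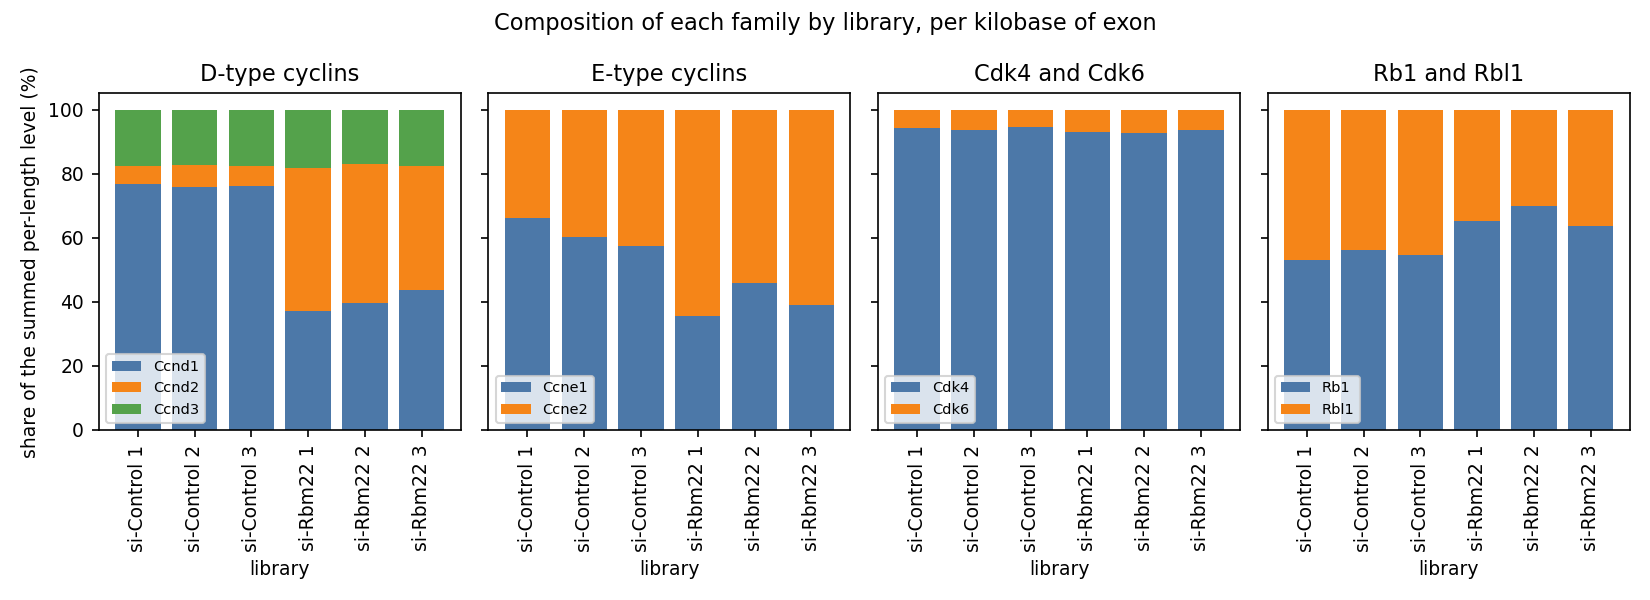
Share of the summed per-length level (percent) taken by each gene of 4 families, with 1 stacked bar per library. Ccnd2 takes 5.74% to 6.67% of the D-type cyclin level in the si-Control libraries and 38.7% to 44.5% in si-Rbm22, and the 2 E-type cyclins change places.

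The E-type cyclins, which activate CDK2 at the entry into S phase, had few reads and moved in opposite directions. Ccne2 (ENSMUSG00000028212; chr4:11191351-11204779, plus strand) was at 12.8, 12.7 and 14.9 CPM in si-Control and 24.4, 18.8 and 27.0 CPM in si-Rbm22. It rose by 0.80 on the log2 scale (SE 0.129, edgeR adjusted p = 6.72e-05), with the si-Rbm22 libraries widely spread but all above si-Control. Its exons overlap Ints8, an Integrator subunit gene on the opposite strand, over 609 bases, and Ints8 fell (48.9 ± 1.28 against 34.8 ± 1.99 CPM, SD, n = 3 each), the direction opposite to that of Ccne2.

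Ccne1 (ENSMUSG00000002068; chr7:38097984-38107534, minus strand) was at 19.1, 14.6 and 15.2 CPM in si-Control and 10.3, 12.2 and 13.2 CPM in si-Rbm22. The gap between the lowest si-Control and the highest si-Rbm22 library was small. Ccne1 fell by 0.46 on the log2 scale (SE 0.131, edgeR adjusted p = 0.00537), and the adjusted p rose to at most 0.0453 among the alternatives. The share of Ccne1 in the E-type cyclin level per length was 61.2% ± 4.53 against 40.2% ± 5.33 (si-Control against si-Rbm22, SD, n = 3 each). The ratio of Ccne2 to Ccne1 was 0.631 and 1.49, without overlap of the groups (exact permutation p = 0.1, adjusted 0.12). The ratio of the summed D-type to the summed E-type level was 8.2 in si-Control and 10.6 in si-Rbm22, also without overlap and with the same p.

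Of the kinases, CDK4 and CDK6 pair with D-type cyclins and CDK2 with E-type and later A-type cyclins. Cdk4 (ENSMUSG00000006728; chr10:127063534-127067920, plus strand) was at 304, 291 and 312 CPM in si-Control and 242, 237 and 276 CPM in si-Rbm22. All si-Rbm22 libraries were lower, the third by the least. It fell by 0.27 on the log2 scale (SE 0.065, adjusted p = 0.00178 by edgeR). The exons of Cdk4 overlap Tspan31, a tetraspanin gene on the opposite strand, over 641 bases (19.7% of the Cdk4 exon length), and Tspan31 fell as well (log2 fold change −0.54, SE 0.069).

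Cdk6 (ENSMUSG00000040274; chr5:3341485-3531008, plus strand) was at 80.7, 85.7 and 76.7 CPM in si-Control and 77.1, 80.9 and 80.7 CPM in si-Rbm22. Cdk2 (ENSMUSG00000025358; chr10:128697939-128705031, minus strand) was at 53.3, 50.1 and 52.0 CPM and at 47.8, 51.2 and 50.6 CPM. For both kinases the groups overlapped. The log2 fold change was −0.027 for Cdk6 (edgeR adjusted p = 0.685; 95% interval by limma-voom −0.155 to 0.103) and −0.055 for Cdk2 (edgeR adjusted p = 0.428; interval −0.187 to 0.077). These intervals leave room for small differences in either direction. Among genes with at least 10 CPM in 3 libraries the sign of Cdk6 turned (0.013). In si-Control, Cdk4 made up 94.1% ± 0.503 of the summed Cdk4 and Cdk6 level per length, against 93.1% ± 0.488 for si-Rbm22 (SD, n = 3 each), and the ratio of Cdk6 to Cdk4 overlapped between the groups (exact permutation p = 0.2).

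Among the pocket proteins, Rbl1 (ENSMUSG00000027641; chr2:157145893-157204534, minus strand), whose product p107 is made mainly in cycling cells, was at 41.5, 37.4 and 39.0 CPM in si-Control and 19.2, 16.8 and 23.1 CPM in si-Rbm22. The groups were well apart. Rbl1 was 1.99-fold lower in si-Rbm22 (log2 fold change −0.996, SE 0.105, adjusted p = 1.03e-06 by edgeR), the deepest fall of the 10 genes. Rb1 (ENSMUSG00000022105; chr14:73183673-73325822, minus strand), the retinoblastoma tumour suppressor gene, was at 47.0, 48.3 and 47.3 CPM and at 36.0, 38.8 and 40.8 CPM. It fell by 0.30 on the log2 scale (SE 0.068, edgeR adjusted p = 0.000929). Rb1 overlaps Rcbtb2 and Lpar6 on the opposite strand over 488 and 408 exon bases, and Rcbtb2 rose (log2 fold change 0.72). The ratio of Rbl1 to Rb1 was 0.829 in si-Control and 0.509 in si-Rbm22, without overlap (exact permutation p = 0.1, adjusted 0.12). Their summed per-length level was 14.5 ± 0.249 and 9.69 ± 0.814 (SD, n = 3 each).

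The promoters of Rbl1 and Cdk4 are printed as those of the deepest fall and of the most abundant member per length. They come from RefSeq (GRCm38.p6), which had promoter entries for 6 of the 10 genes, among them Ccnd3, Ccne1, Cdk2 and Cdk6. Each sequence ends just before the first annotated base of the gene. Capitals in Rbl1 mark the E2F site TTTCGCGC, and those in Cdk4 the E-box CACGTG, bound by MYC family factors.
Rbl1, chr2:157204535-157204784, minus strand: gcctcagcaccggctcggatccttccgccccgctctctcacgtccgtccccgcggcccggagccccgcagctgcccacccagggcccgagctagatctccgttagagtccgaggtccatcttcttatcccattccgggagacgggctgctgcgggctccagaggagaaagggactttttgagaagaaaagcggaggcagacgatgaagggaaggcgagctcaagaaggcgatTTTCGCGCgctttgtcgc
Cdk4, chr10:127063285-127063533, plus strand: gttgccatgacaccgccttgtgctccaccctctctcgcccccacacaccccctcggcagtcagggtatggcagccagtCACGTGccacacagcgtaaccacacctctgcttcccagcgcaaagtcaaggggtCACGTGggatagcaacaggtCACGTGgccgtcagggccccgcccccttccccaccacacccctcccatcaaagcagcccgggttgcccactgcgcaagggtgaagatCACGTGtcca
Motifs were searched on both strands in the 250 bases before each start in the RefSeq table, and were chosen after these sequences had been seen. All 250 searched bases of Cdk6 and of 1 of the 2 Ccnd3 entries, 44 of those of Ccne1 and 1 of those of Cdk4 lie inside the gene as GENCODE M21 annotates it. At least 1 of 4 spellings of the E2F site (TTTCGCGC, TTTCCCGC, TTTGGCGC, TTTGCCGC) occurred in 1.86% of 32851 promoters. Of the 6 genes, Rbl1 and Cdk2 had 1 match each, and Rbl1 fell while Cdk2 did not pass the test. The E-box CACGTG occurred in 6.02% of promoters, 4 times in that of Cdk4 and once in that of Cdk6. A match describes the letters only.

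Ordered by per-length level, the 10 genes fell into an abundant and a scarce set in both groups. In si-Control, Cdk4 (93.2 ± 3.27) and Ccnd1 (62.2 ± 1.65) led, followed by Ccnd3 (14.3 ± 0.308), and the other 7 lay between 8.32 (Cdk2) and 3.85 (Ccne2). Within those 7, Rbl1 did not differ from Ccne1, nor Ccne1 from Cdk6, beyond their spread over libraries, and Cdk2, Rb1, Ccnd2 and Ccne2 did not overlap their neighbours. In si-Rbm22, Cdk4 (77.5 ± 6.47) was again first. Ccnd2 (49.7 ± 1.56) had moved from the ninth place to the second, level with Ccnd1 (47.6 ± 7.43) within the spread, and Ccnd3 (20.8 ± 1.19) came next. Cdk2, Ccne2 and Rb1 overlapped their neighbours between 8.01 and 6.40, and Cdk6 (5.69 ± 0.154) lay within the range of Ccne2 (5.39 to 7.73). Ccne1 (4.46) and Rbl1 (3.29) closed the order without overlap. With the longest transcript or longest coding transcript as length, 42 to 44 of 45 pairs of genes kept their order. With the longest coding transcript, Ccnd3 lay above both Ccnd2 and Ccnd1 in si-Rbm22. The second place of Ccnd2 there thus depends on the length used.

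**Figure D3:**
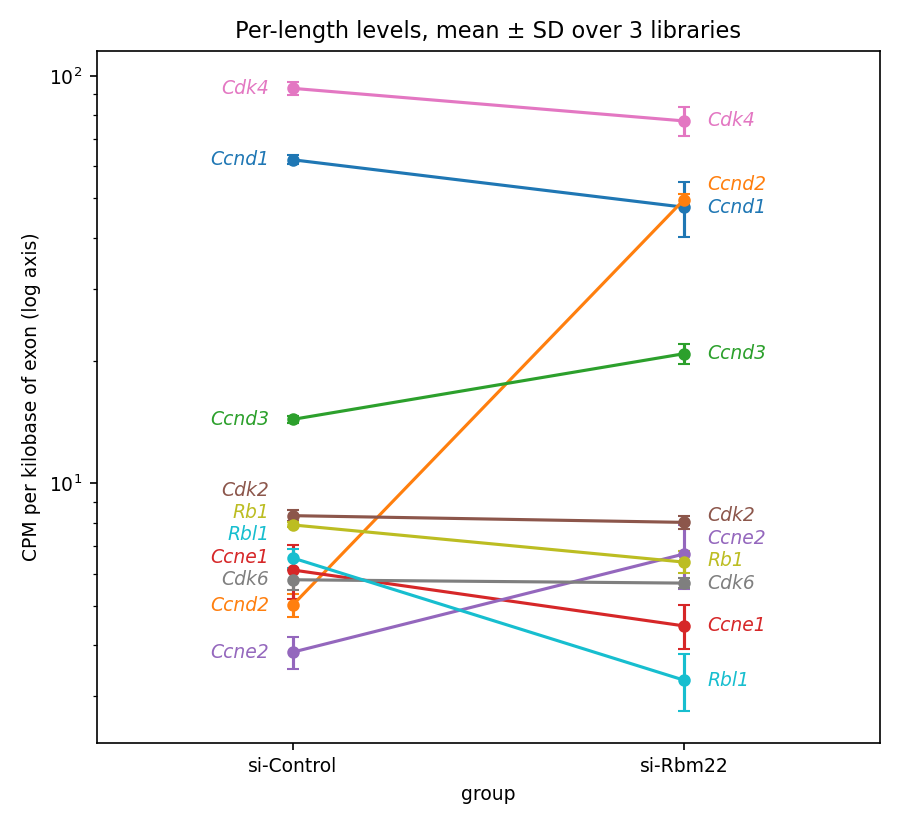
Mean CPM per kilobase of exon (log axis) ± SD over 3 libraries for each gene in si-Control and si-Rbm22, joined by a line per gene. The line of Ccnd2 climbs from 5.02 to 49.7 past 7 other genes, and that of Rbl1 drops from 6.56 to 3.29.

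Within the si-Rbm22 group the libraries were not alike. The third library was the highest of the 3 for 7 of the 10 genes (Ccnd1, Ccnd3, Ccne1, Ccne2, Cdk4, Rb1 and Rbl1) and the lowest for 0, while it was the highest for 36.9% and the lowest for 37.4% of all genes tested. Its summed cardiomyocyte marker level was 29260 CPM, against 43950 and 45110 CPM in the first and the second, and the part of that difference was not tested. The coefficient of variation in si-Rbm22 was largest for Ccne2 (17.8%), Rbl1 (16.2%) and Ccnd1 (15.6%) and smallest for Cdk6 (2.7%) and Ccnd2 (3.1%). In si-Control it was 15.1% for Ccne1 and at most 9.1% for the other 9 genes.

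By the root mean square distance between log2 CPM profiles centred over the 6 libraries, the genes most like Ccnd2 were Zfp579 (0.061), Hfe2 (0.075) and Camta1 (0.076). Those most like Rbl1 were Cdca5 (0.028), Cep128 (0.032) and Cdk1 (0.039). Those nearest Ccne1 were Klf16 (0.083), Plpp2 (0.086) and Kif1bp (0.09), and those nearest Cdk6 were Tanc2 (0.02), Cask (0.023) and Smad3 (0.026). The groups overlap for Cdk6 and are apart for the other 3.

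Genes that act on the same step were examined as lists. The E2F family, the factors that pocket proteins restrain, had 3 members higher and 6 lower of 10 (median log2 fold change −0.46). The activator genes E2f1 (44.7 ± 3.96 against 15.8 ± 1.35 CPM, SD, n = 3 each) and E2f2 fell. E2f3, also an activator gene, rose and had a log2 fold change of 0.43 (SE 0.066, adjusted p = 3.23e-05 by edgeR). The log2 fold change of E2f2 was −1.80 (SE 0.133), the largest of the list. Tfdp2, which encodes a dimer partner of E2F, rose by 1.04 (SE 0.063). Among 10 partners of the pocket proteins and members of the DREAM complex, which represses cell cycle genes in resting cells, 3 were higher and 5 lower (median −0.14). Rbl2, which encodes the third pocket protein p130, was at 107 ± 1.75 and 44.6 ± 1.19 CPM (SD, n = 3 each) and fell by 1.26 on the log2 scale (SE 0.057, adjusted p = 6.51e-11 by edgeR). The mitotic transcription factor gene Foxm1 and the histone-binding protein gene Rbbp4 fell by 0.79 (SE 0.059) and 0.58 (SE 0.053).

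The CDK inhibitors, which block these kinases, changed in both directions, with 4 higher and 3 lower of 7 (median 0.36). Cdkn1a, which encodes p21 and had the highest CPM of the 7, rose by 0.36 on the log2 scale (SE 0.058), and Cdkn1b, which encodes p27, fell by 0.58 (SE 0.064). Cdkn2b, which encodes the CDK4 and CDK6 inhibitor p15, had no reads in si-Control. Its si-Rbm22 level was 30.4 ± 1.69 CPM (SD, n = 3), at least 1087-fold higher against a floor of 3 counts over the group. Cdkn2a also had no reads in si-Control and was at 5.75 ± 1.19 CPM in si-Rbm22, at least 205-fold higher by the same floor. Cdkn1c, which encodes p57, was at 0.958 ± 0.158 and 43.9 ± 4.88 CPM (SD, n = 3 each). It rose by 5.51 on the log2 scale (SE 0.141). Cdkn2d, which encodes p19, another inhibitor of CDK4 and CDK6, fell from 45.2 ± 2.28 to 13.5 ± 0.836 CPM.

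Genes linked to CDK activation or to the inhibitory phosphate on CDKs had 4 higher and 5 lower of 9 (median −0.21). Among the CDC25 phosphatases, which remove that phosphate, Cdc25a, the one of the G1/S step, rose by 0.90 (SE 0.076), while Cdc25b fell by 1.84 (SE 0.072) and Cdc25c by 1.12 (SE 0.119). Of 12 genes for the ubiquitin ligases that turn over cyclins and CDK inhibitors, and their cofactors, 2 were higher and 7 lower (median −0.38). Fbxw7, which encodes the receptor for cyclin E, rose from 25.4 ± 0.923 to 57.2 ± 3.08 CPM (SD, n = 3 each). The RING subunit gene Rbx1 fell by 0.85 (SE 0.063) and the CDK-binding Cks2 by 1.02 (SE 0.08).

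Genes downstream of the G1 step were mostly lower. All 5 tested S phase and mitotic cyclin and kinase genes fell (median −1.16), with Ccnb2 at −1.75 (SE 0.076), Ccnf at −1.22 (SE 0.065) and Ccna2 at −1.14 (SE 0.058) on the log2 scale, and Ccna1, the germ cell form, had too few reads to test. Of 24 E2F target genes of S phase, 3 rose, 13 fell and 8 did not pass (median −0.39). The 3 that rose were Orc1 by 0.85 (SE 0.194), Cdc6 by 0.42 (SE 0.144) and Rrm1 by 0.19 (SE 0.06). Pcna and Mcm3 were among those that did not pass. Tk1, the thymidine kinase gene, fell by 1.81 (SE 0.115), the largest change, and Rrm2, Rfc3 and Uhrf1, for nucleotide reduction, clamp loading and maintenance methylation, fell by 1.65 (SE 0.104), 1.22 (SE 0.088) and 1.09 (SE 0.074). Ccne2 and Ccnd2 rose in the same libraries.

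Of 13 transcription factors known to act upstream of D-type cyclin genes, 6 were higher and 6 lower (median −0.11). Mycn, the MYC family gene of developing tissues, was at 0.214 ± 0.0298 and 27.8 ± 3.01 CPM (SD, n = 3 each) and rose by 6.99 on the log2 scale (SE 0.186), from 9, 7 and 7 reads in si-Control. Myc, of the same family, was more abundant in both groups, at 57.7 ± 1.03 and 53.5 ± 3.58 CPM (SD, n = 3 each). It did not pass (log2 fold change −0.11, edgeR adjusted p = 0.138). Gata4, a heart factor and also one of the cardiomyocyte markers, rose by 3.91 (SE 0.067). Tead1, which encodes a DNA-binding partner of the Hippo pathway effector YAP, rose from 145 ± 5.48 to 558 ± 17.4 CPM (SD, n = 3 each), by 1.94 on the log2 scale (SE 0.058). Lef1, which encodes a partner of beta-catenin in WNT signalling, fell from 13.2 ± 1.39 to 1.25 ± 0.345 CPM (SD, n = 3 each), by 3.41 (SE 0.199). The median over all genes tested was 0.05, and 82% of them passed, so the share that passed in each list is to be read beside that.

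**Figure D4:**
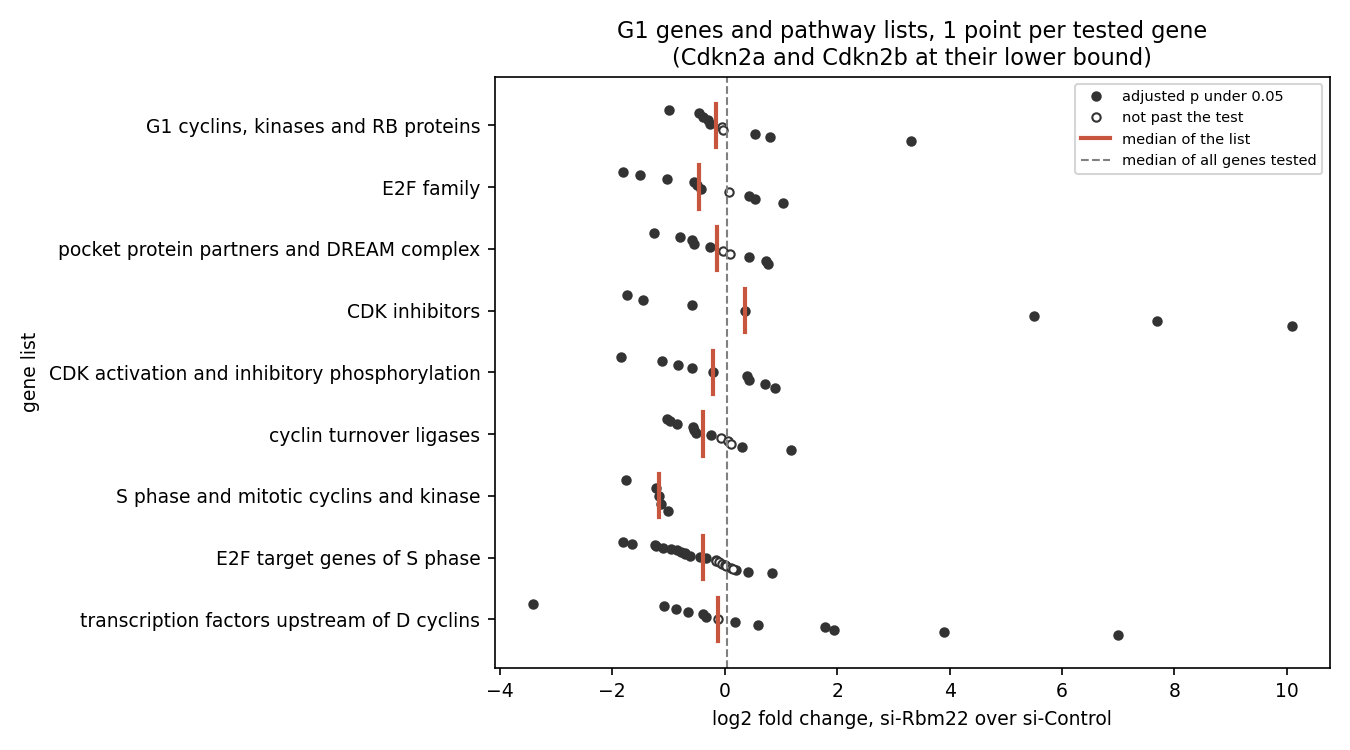
Log2 fold change, si-Rbm22 over si-Control, of each tested gene in the G1 list and 8 pathway lists, with filled points for an adjusted p under 0.05, a red bar at each list's median and a dashed line at the median of all genes tested (0.05). Cdkn2a and Cdkn2b, without reads in si-Control, stand at their lower bound, and the S phase and mitotic cyclin list lies wholly to the left, with a median of −1.16.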

How the data were processed

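The authors deposited read counts as whole numbers, 1 row per Ensembl gene and 1 column per library, not normalized, for 3 libraries a group. Per the submitters' processing notes, the tools were fastp, HISAT2, HTSeq and DESeq2 and the build GRCm38. Versions, settings, annotation release and strand handling are not stated there. Of 18951 identifiers, 18868 matched GENCODE M21. Groups came from the sample titles, and counts differed between replicates by more than sampling noise (chi-square per degree of freedom 4.52 to 30.94). The protocols speak of biological replicates without naming separate isolations, so a p-value here reflects only how far these cultures differ, which may be technical.

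All genes were tested with edgeR 4.0.16 in R 4.3.3 (TMM scaling, filterByExpr, robust quasi-likelihood fit, group as the only term), with Benjamini-Hochberg adjustment over 14621 genes and a threshold of 0.05. SE values were derived from the fold change and the F statistic (|log2 fold change| over the root of F). Intervals come from limma 3.58.1. Per-length levels use the union of annotated exons. From each pathway list, the 3 genes with the smallest p and the one with the largest change were named. E2f3, Cdkn1a, Cdkn1b, Cdkn2a, Orc1, Cdc6, Rrm1, Pcna, Mcm3, Myc and Lef1 were added after their values were seen. A further gene of the list of transcription factors is not reported here and is left out of that list's counts. The floor of 3 counts covers counting error alone, as no molecular identifiers are named in the protocols and reads may not be independent molecules. Members, lists and rules were chosen with earlier results of these data known. Alternatives are given in the closing section.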

Additional observations from a re-analysis of the deposited data

How the results depend on the processing

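The 8 genes that passed kept their direction and their call in each of 14 other fits (RLE size factors, library totals without a scaling factor, mitochondrial transcripts and cardiomyocyte markers left out, no filter on low counts, at least 10 CPM in 3 libraries, DESeq2 1.42.0, limma-voom, a replicate block, and each of the 6 libraries left out), and Cdk2 and Cdk6 passed in none. Among genes with at least 10 CPM in 3 libraries the log2 fold change of Cdk6 was 0.0129. Requiring a 2-fold change as well as the adjusted p left 6301 genes, 3566 higher and 2735 lower, and of the 10 genes 1 called, 1 higher and 0 lower. With the longest transcript as length, the D-type cyclin level was 66.2% Ccnd1 and 27.6% Ccnd3 in si-Control and 33.0% Ccnd1 and 26.2% Ccnd3 in si-Rbm22. With the longest protein-coding transcript, chosen after the data were seen, it was 53.9% Ccnd1, 5.13% Ccnd2 and 41.0% Ccnd3 in si-Control and 27.1%, 33.6% and 39.3% in si-Rbm22. Same-numbered libraries of the 2 groups deviated together at correlations of −0.018, 0.021 and 0.079. Pairs of different number ran from −0.07 to 0.056. The protocols do not say whether a shared number marks a shared isolation, and these values cannot settle it. With the replicate block, the log2 fold change of Ccnd2 was 3.31 and 8 of the 10 genes were called. Pairing by number leaves the difference in a mean log2 ratio unchanged by construction. The block is therefore no check on the Ccnd2 to Ccnd1 difference of 3.71. The count of calls over all genes was 11945 with the block and 11983 without. Depth did not limit the 10 genes: the lowest count was 376 reads, for Ccne1.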
